A study of Mus musculus with 16 samples.

Results

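The unfolded protein response genes described here are 33 named chaperone and stress response genes of the endoplasmic reticulum (ER), taken as listed rows of a table of 55291 genes. All 33 were found in that table, and all 33 passed the filter on low counts. They were measured by RNA sequencing in LSK cells of the bone marrow, the fraction without lineage markers but with c-Kit and Sca-1 that holds haematopoietic stem and early progenitor cells. The cells came from individual C57BL/6 mice, and were purified with beads. DM mice carried both Asxl1Y588XTg, a transgene of a truncated form of the chromatin regulator Asxl1, and Srsf2P95H/+, a heterozygous point mutation of Srsf2, which encodes a splicing factor. Srsf2P95H mice carried the Srsf2 mutation alone, Asxl1Tg mice carried the transgene alone, and WT mice carried neither. Each genotype had 4 mice, although the design text of the series gives 3 for DM. Sex, age, batch and the promoter of the transgene are not in the labels. The series is titled as a study of the Srsf2 mutation on top of the Asxl1 transgene in leukaemia development, and each mutation was therefore examined alone, combined, and added to the other.

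The unfolded protein response is the reaction of a cell to misfolded protein in the ER. The membrane sensors IRE1 (gene Ern1), PERK (Eif2ak3) and ATF6 detect the load, and act through the transcription factors XBP1, ATF4 and cleaved ATF6. Their targets fold proteins, remove misfolded ones by ER-associated degradation (ERAD), or, through CHOP (Ddit3), favour cell death. Blood stem cells make little protein and are known to be sensitive to ER stress, while the granulocyte lineage fills its granules with secretory proteins.

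Sequence elements for which the pathway is known were found in the promoters of 15 members, and these are shown first. RefSeq promoters (GRCm38.p6, 250 bases before to 50 after a transcription start) were found for 29 of the 33 members, Ero1l under the symbol Ero1a. Atf6, Hyou1, Manf and Derl1 were not matched. Each promoter was searched on both strands for 4 exact letter strings. The strings are elements already known for this pathway, so a higher share among the members is a description and not a test. The ER stress element ERSE (CCAAT, then any 9 bases, then CCACG) is bound by NF-Y together with ATF6. It was present in 9 of 29 members (31.0%) and in 39 of all 32851 promoters (0.119%). Those 39 promoters belonged to 37 genes, the 9 members among them. The 10 sites, 2 of them in Hsp90b1, are given below on the strand that reads CCAAT first, with the fixed letters in capitals.
Hspa5: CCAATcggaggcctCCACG
Hsp90b1, farther site: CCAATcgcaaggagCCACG
Hsp90b1, nearer site: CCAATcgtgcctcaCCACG
Calr: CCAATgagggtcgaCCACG
Canx: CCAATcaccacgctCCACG
Pdia6: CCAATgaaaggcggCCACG
Creld2: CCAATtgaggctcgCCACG
Dnajc3: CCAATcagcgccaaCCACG
Syvn1: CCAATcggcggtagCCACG
Derl3: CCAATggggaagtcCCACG

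The related ERSE-II string (ATTGG, then any 1 base, then CCACG) was found in Dnajb11 and Herpud1, and in 0.0365% of all promoters. The UPRE core (TGACGTGG), a site of XBP1 and ATF6, was in no member promoter and in 0.676% of all. The C/EBP-ATF response element CARE (TGATGNAA), a site of ATF4, was in 5 member promoters (17.2%) and in 3.97% of all. Of these, 4 were the 4 members classed as targets of ATF4 and CHOP, and the fifth was Herpud1. No matches of different strings overlapped. The sites of those 4 targets are shown on the strand that matches.
Trib3: TGATGtAA
Chac1: TGATGcAA
Asns: TGATGaAA
Nupr1: TGATGcAA

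**Figure D1:**
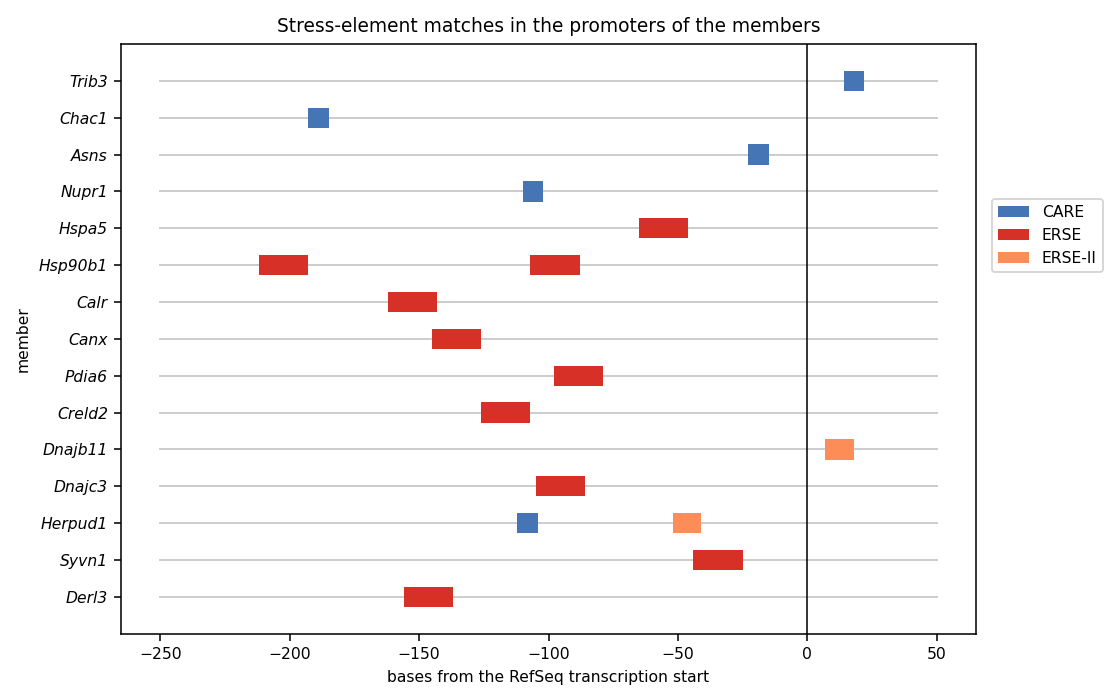
Positions of ERSE, ERSE-II and CARE matches (coloured bars) in the 300-base promoters of the 15 members that hold any, by distance in bases from the RefSeq transcription start (vertical line). The CARE matches cover the 4 ATF4 and CHOP targets and Herpud1, and the ERSE matches the 9 members whose sites are printed in the text.

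The 250 bases before the start are given for 4 members that passed a test below, since they show the elements in place. No match to any of the 4 strings was found in the promoters of the called members Pdia3, Ero1l, Sel1l, Edem1, Derl2 and Sec61b. In Calr (chr8:84846932-84847181, minus strand), Canx (chr11:50325674-50325923, minus strand) and Dnajc3 (chr14:118937682-118937931, plus strand) the capitals mark ERSE, which in Calr lies on the opposite strand. In Nupr1 (chr7:126625471-126625720, minus strand) they mark CARE, also on the opposite strand.
Calr: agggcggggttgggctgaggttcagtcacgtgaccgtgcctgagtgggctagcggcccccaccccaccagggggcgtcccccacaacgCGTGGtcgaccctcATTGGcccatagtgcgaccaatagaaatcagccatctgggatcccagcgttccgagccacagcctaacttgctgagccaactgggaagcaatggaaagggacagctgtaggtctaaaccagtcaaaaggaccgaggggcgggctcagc
Canx: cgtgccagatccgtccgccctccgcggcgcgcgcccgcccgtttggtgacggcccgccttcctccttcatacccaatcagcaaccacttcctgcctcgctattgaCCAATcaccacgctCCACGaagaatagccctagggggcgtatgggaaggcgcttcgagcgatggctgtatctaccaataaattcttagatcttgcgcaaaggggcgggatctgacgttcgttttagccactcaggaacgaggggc
Dnajc3: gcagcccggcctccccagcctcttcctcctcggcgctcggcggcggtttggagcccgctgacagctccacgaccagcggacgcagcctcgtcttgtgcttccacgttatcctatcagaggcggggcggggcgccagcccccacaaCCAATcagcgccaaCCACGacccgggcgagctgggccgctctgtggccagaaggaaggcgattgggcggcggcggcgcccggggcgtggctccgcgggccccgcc
Nupr1: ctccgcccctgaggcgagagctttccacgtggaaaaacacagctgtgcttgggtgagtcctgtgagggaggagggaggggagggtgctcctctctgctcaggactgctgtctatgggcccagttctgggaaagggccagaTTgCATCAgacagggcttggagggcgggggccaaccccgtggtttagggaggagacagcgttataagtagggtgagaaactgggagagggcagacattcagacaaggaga
A match describes the letters in this window and is not evidence that a factor was bound.

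Libraries held total counts of 113.8 to 127.6 megacounts in DM, 92.2 to 104.8 in Srsf2P95H, 85.7 to 102 in Asxl1Tg and 82.99 to 124 in WT. Expression is given in CPM, counts per megacount of the TMM-scaled library. The LSK markers Kit, Ly6a (which encodes Sca-1), Cd34 and Flt3 and the other 6 of a list of 10 had counts in every library. Their summed level was 3007 to 3570 CPM in DM, 2815 to 3293 in Srsf2P95H, 2440 to 2997 in Asxl1Tg and 2955 to 3837 in WT. With edgeR 1 of the 10 was called lower in DM versus WT, where 4.73% of all genes fell. Flt3 ran from 203 to 337 CPM in DM, 297 to 407 in Srsf2P95H and 256 to 416 in Asxl1Tg, against 319 to 705 in WT. Asxl1 and Srsf2 did not pass the test in any comparison (smallest adjusted p = 0.130, edgeR), and neither level shows whether the transgene or the point mutation was present. Xist stood at 1566 to 2312 CPM in DM 1, Srsf2P95H 2, Srsf2P95H 3, Asxl1Tg 3 and WT 1, and did not exceed 2.11 CPM elsewhere.

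Together the 33 members took 0.761 ± 0.0517% of all counts in DM, 0.831 ± 0.131% in Srsf2P95H and 0.741 ± 0.143% in Asxl1Tg, against 0.597 ± 0.0891% in WT (SD, n = 4 each). Per kilobase of exon, the lectin chaperone Calr was the most abundant member in WT, at 418.1 ± 104.9 CPM per kb. Hspa5, which encodes the Hsp70 chaperone BiP, followed at 162.7 ± 40.8 CPM per kb, and the lectin chaperone Canx at 160.5 ± 28.0 CPM per kb. These levels of Hspa5 and Canx did not differ beyond their spread, and Pdia3 was next at 142.0 ± 27.8 CPM per kb. The transcription factor genes Atf4, Xbp1 and Ddit3 stood at 67.3 ± 18.2, 28.3 ± 3.57 and 6.26 ± 0.871 CPM per kb. At the low end of the WT order stood Nupr1, at 0.987 ± 0.363 CPM per kb, and Chac1, at 0.179 ± 0.128 CPM per kb. Exon lengths cover all annotated exons of a gene (2514 bases for Nupr1), whichever transcripts were expressed, which can lower a level per kb. Chac1 rested on 10 to 92 counts per library, and Nupr1 on 162 to 1186.

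Several genes that fold or degrade ER proteins were higher with the Srsf2 mutation, averaged over both Asxl1 backgrounds. With edgeR on all libraries no sensor or transcription factor of the response was called. The comparison with the most members called set the 8 libraries with the Srsf2 mutation against the 8 without it, as the mean of Srsf2P95H minus WT and DM minus Asxl1Tg. In it 10 of 33 members rose and none fell, where 6.57% of all 22749 genes tested rose and 4.07% fell (edgeR quasi-likelihood test, called at an adjusted p under 0.05 by Benjamini-Hochberg). The 10 were Nupr1, Canx, Pdia3, Ero1l, Dnajc3, Sel1l, Edem1, Derl1, Derl2 and Sec61b. Their log2 fold changes ran from 0.20 to 0.92, and all but that of Nupr1 were at most 0.40. The median over all 33 was 0.26, against -0.02 over all genes, and 30 members were above 0, against 47.5% of all genes. At an unadjusted p under 0.05, 20 were higher (15.7% of all genes). The 2 differences that were averaged were unlike in size. The median over the 33 was 0.45 in Srsf2P95H versus WT, with 1 member called (0.264% of all genes rose). It was 0.11 in DM versus Asxl1Tg, with 0 called (0.848% of all genes rose). In DM versus Asxl1Tg 3 were higher at an unadjusted p under 0.05 (10.6% of all genes). Of the members with a promoter, 2 of the 11 with ERSE or ERSE-II were called, against 7 of the 18 without, and the median log2 fold changes were 0.30 and 0.25.

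More members were called by the other tools, and these included 1 sensor and 1 transcription factor. In the averaged Srsf2 effect DESeq2 called 13 members (9.09% of all genes) and limma-voom 12 (9.17%), all higher, and both added the sensor Eif2ak3 and the chaperone Calr. In Srsf2P95H versus WT DESeq2 called 19 (7.14% of all genes), all higher, among them the transcription factor Xbp1. With DESeq2 12 were higher in DM versus WT (8.31%) and 2 in Asxl1Tg versus WT (4.53%), and none lower.

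Against WT, the members' medians were on the same side of 0 in each mutant genotype. The median log2 fold change of the 33 members was 0.36 in DM, 0.45 in Srsf2P95H and 0.22 in Asxl1Tg, against -0.02, -0.05 and -0.04 over all genes. These comparisons share the 4 WT libraries. In DM versus WT 5 members rose (Nupr1, Calr, Dnajc3, Sel1l and Derl2) and none fell, where 4.65% of all genes rose and 4.73% fell. In Srsf2P95H versus WT 1 rose (Nupr1) and none fell, where 0.264% of all genes rose and 0.242% fell. In Asxl1Tg versus WT 1 rose (Nupr1 again) and none fell, where 1.12% of all genes rose and 0.76% fell. Members with a log2 fold change above 0 numbered 29 in DM (47.6% of all genes), 31 in Srsf2P95H (45% of all genes) and 26 in Asxl1Tg (44.7%). At an unadjusted p under 0.05 the counts of higher members were 15 in DM (15.2% of all genes), 22 in Srsf2P95H (14.2%) and 7 in Asxl1Tg (10.4%). The 4 mutant libraries lay wholly above the 4 WT libraries for 9 members in DM (9.28% of all genes), 10 in Srsf2P95H (8.33%) and 1 in Asxl1Tg (3.7%). Trib3 in Srsf2P95H was the only member wholly below WT in these 3 comparisons, as 5.4% of all genes were in Srsf2P95H.

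**Figure D2:**
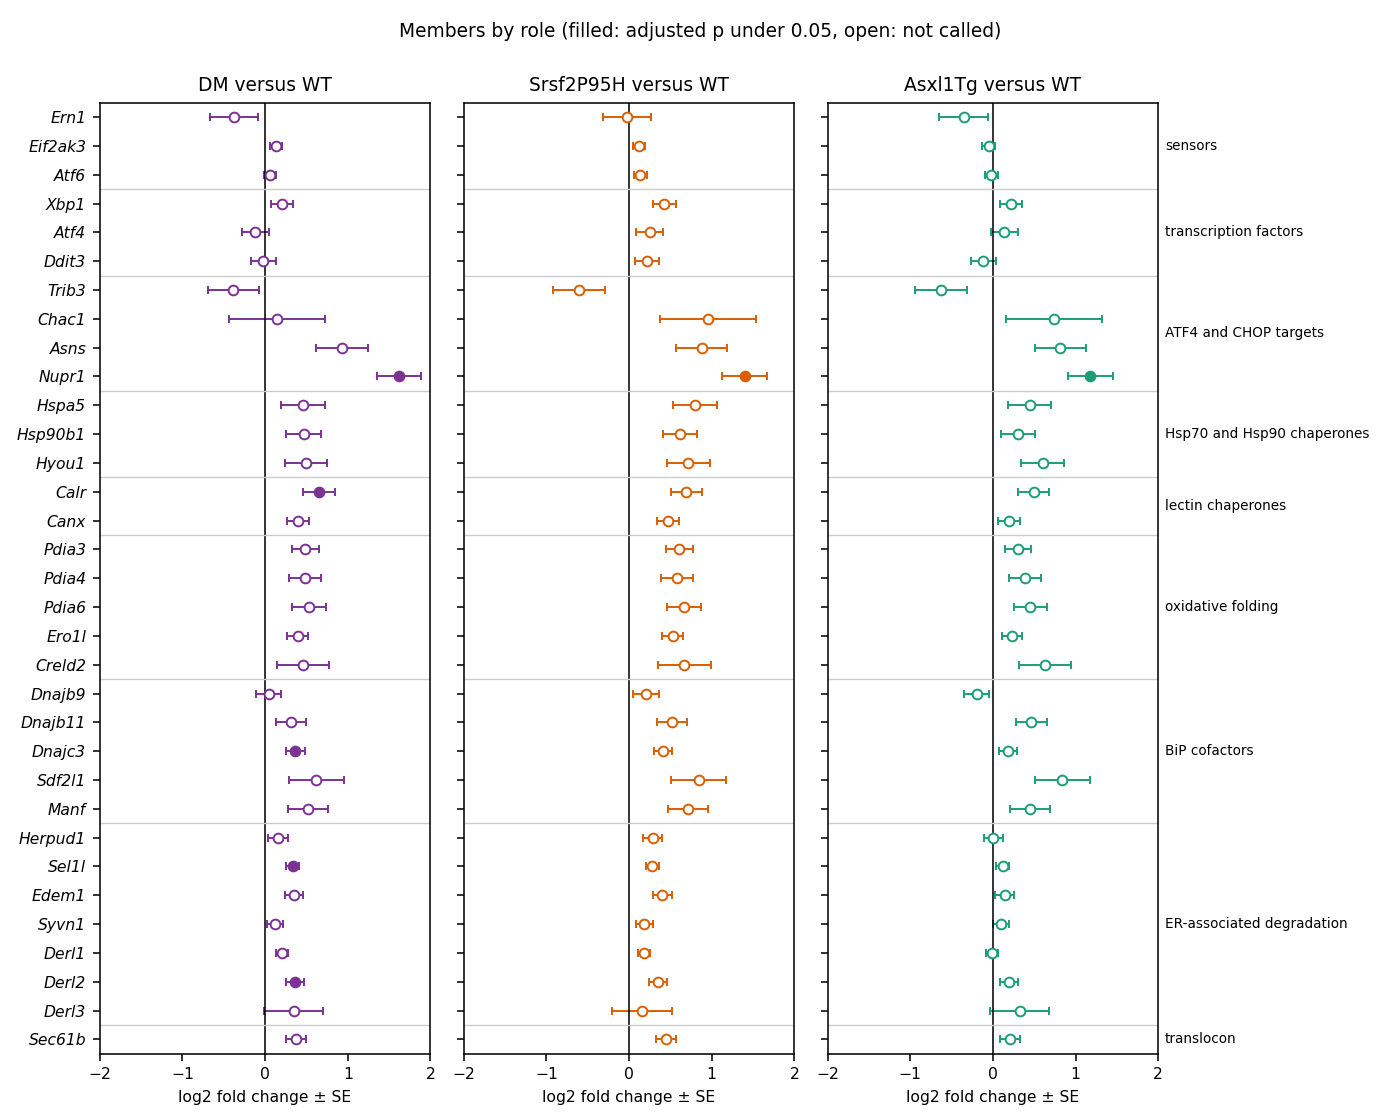
Log2 fold change ± SE of each member in DM, Srsf2P95H and Asxl1Tg versus WT, from left to right, with members grouped by role down the page. Filled points are the 5, 1 and 1 members called at an adjusted p under 0.05. Most open points of the chaperone and folding groups lie right of 0.

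These counts rested on single libraries. The count of 10 for the averaged Srsf2 effect was 1 without Srsf2P95H 1, 2 without DM 1 or DM 2, 3 without DM 4 or Asxl1Tg 2, and 4 without WT 3. The count of 5 in DM versus WT was 1 without DM 1, DM 2, WT 2 or WT 3. It was 2 without DM 4, Srsf2P95H 4, Asxl1Tg 3 or Asxl1Tg 4, 3 without Srsf2P95H 3 or WT 4, 9 without WT 1 and 13 without Asxl1Tg 2. In Srsf2P95H versus WT the count of 1 was 6 without Srsf2P95H 2, 11 without WT 1 and 12 without Asxl1Tg 2. It was 0 without DM 2, DM 4, Srsf2P95H 1, Srsf2P95H 3, Srsf2P95H 4, WT 2, WT 3 or WT 4. In Asxl1Tg versus WT it was 8 without Asxl1Tg 2 and 0 without Asxl1Tg 1, Asxl1Tg 3, WT 2 or WT 3. Scaling by library size only, in place of TMM, moved the median of all genes to -0.16 in Srsf2P95H versus WT and to -0.12 in DM versus WT. The members' medians were then 0.35 and 0.26, and 1 member was called for the averaged Srsf2 effect. The share of called genes that were higher was then 22.8% for that effect, against 61.7% with TMM. It was 27.0% against 49.6% in DM versus WT, 18.4% against 52.2% in Srsf2P95H versus WT, and 37.2% against 78.8% in DM versus Asxl1Tg.

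No sensor gene was called by edgeR on all libraries in any comparison. Ern1, the kinase and RNase that splices Xbp1 mRNA, was at 148, 135, 138 and 139 CPM in DM, 116, 300, 161 and 142 in Srsf2P95H and 131, 150, 166 and 123 in Asxl1Tg, against 304, 146, 134 and 145 in WT. Srsf2P95H 2 and WT 1 stood near 300 CPM, and the other 14 libraries at 166 or below. Eif2ak3, the kinase that slows translation through eIF2, ran from 32.0 to 36.5 CPM in DM, 31.6 to 36.6 in Srsf2P95H and 27.57 to 33.01 in Asxl1Tg, against 28.8 to 32.2 in WT. Atf6, whose cleaved form is a transcription factor, was at 86.1 to 97.5 CPM in DM, 89.7 to 107 in Srsf2P95H and 78.1 to 93.8 in Asxl1Tg, against 82.5 to 97.9 in WT. All 3 sensors overlapped between each mutant genotype and WT, and in the averaged Srsf2 effect Eif2ak3 came nearest to a call (log2 fold change 0.15, SE 0.05, adjusted p = 0.0755, edgeR). DESeq2 and limma-voom called it there, as did edgeR without Asxl1Tg 3.

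The transcription factor genes were not called by edgeR on all libraries either. Xbp1 was at 103, 118, 110 and 92.2 CPM in DM, 134, 133, 94.0 and 134 in Srsf2P95H and 119, 82.3, 103 and 122 in Asxl1Tg, against 109, 85.0, 85.4 and 88.3 in WT. Its log2 fold change in Srsf2P95H versus WT was 0.43 (SE 0.13, adjusted p = 0.0780, edgeR). It was called there by DESeq2, and by edgeR without Asxl1Tg 2 or WT 1. Counts per gene do not separate spliced from unspliced Xbp1 mRNA, so the activity of IRE1 was not measured. Atf4 was at 139, 150, 134 and 162 CPM in DM, 183, 229, 168 and 175 in Srsf2P95H and 183, 183, 149 and 183 in Asxl1Tg, against 180, 189, 170 and 95.6 in WT. All 4 DM libraries were below all 4 Srsf2P95H libraries, as for 1.42% of genes, but the difference was not called (log2 fold change -0.37, SE 0.16, adjusted p = 0.738, edgeR). WT 4 had the lowest Atf4 level of the 16 libraries. Ddit3 stood between 8.73 and 15.7 CPM over all libraries, with overlap between all genotypes.

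Among the targets of ATF4 and CHOP, Nupr1, a small stress-induced chromatin protein, rose in each mutant genotype. The gene (chr7:126623249-126630861, minus strand, GRCm38) was at 7.09, 6.94, 9.43 and 7.07 CPM in DM, 8.13, 4.78, 5.54 and 7.73 in Srsf2P95H and 4.92, 5.72, 7.88 and 3.96 in Asxl1Tg, against 3.23, 1.94, 1.47 and 3.28 in WT. Every mutant library lay above every WT library. Nupr1 was 3.08-fold higher in DM (log2 fold change 1.62, SE 0.27, adjusted p = 0.0033), 2.64-fold in Srsf2P95H (1.40, SE 0.27, adjusted p = 0.0379) and 2.27-fold in Asxl1Tg (1.18, SE 0.27, adjusted p = 0.0336, edgeR for all 3). DM did not differ detectably from Srsf2P95H (log2 fold change 0.22, SE 0.26, adjusted p = 0.990) or from Asxl1Tg (0.44, SE 0.26, adjusted p = 0.402). The calls in DM versus WT and in the averaged Srsf2 effect (0.92, SE 0.19, adjusted p = 0.00974) held in every run with a library left out. The Srsf2P95H call was lost in 8 of those 16 runs (adjusted p up to 0.140), without DM 2, DM 4, Srsf2P95H 1, Srsf2P95H 3, Srsf2P95H 4, WT 2, WT 3 or WT 4. The Asxl1Tg call was lost in 4 (up to 0.0981), without Asxl1Tg 1, Asxl1Tg 3, WT 2 or WT 3.

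The other 3 targets of ATF4 and CHOP were not called by edgeR on all libraries. Asns, the asparagine synthetase gene, was at 48.6, 30.9, 37.2 and 45.0 CPM in DM, 44.8, 32.3, 38.8 and 40.6 in Srsf2P95H and 34.5, 20.8, 50.6 and 43.4 in Asxl1Tg, against 27.8, 30.1, 15.9 and 11.1 in WT. DM and Srsf2P95H did not overlap with WT, but the spread within WT was wide and no call was made (log2 fold change 0.93 in DM, SE 0.31, adjusted p = 0.0685, edgeR). DESeq2 called Asns higher in DM, Srsf2P95H and Asxl1Tg versus WT, and edgeR without Asxl1Tg 2 in DM and Asxl1Tg versus WT. Trib3, a pseudokinase that restrains ATF4 and CHOP, had a log2 fold change below 0 in each mutant genotype versus WT, at -0.38 in DM, -0.60 in Srsf2P95H and -0.63 in Asxl1Tg (SE 0.31 each, none called). Chac1, which degrades glutathione, was under 1 CPM in every library.

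Of the Hsp70 and Hsp90 chaperones none was called by edgeR on all libraries, while DESeq2 called Hspa5, Hsp90b1 and Hyou1 higher in Srsf2P95H versus WT, and Hsp90b1 in the averaged Srsf2 effect. Hspa5 was at 888, 1249, 853 and 794 CPM in DM, 1524, 1322, 689 and 1250 in Srsf2P95H and 1301, 780, 689 and 974 in Asxl1Tg, against 793, 696, 821 and 442 in WT. The lowest library of each mutant genotype fell within the WT range, and the log2 fold changes were 0.46 in DM, 0.80 in Srsf2P95H and 0.44 in Asxl1Tg (SE 0.26 each). Hsp90b1, the ER form of Hsp90, and Hyou1, an Hsp70-like exchange factor of BiP, had log2 fold changes of 0.47 and 0.50 in DM, 0.62 and 0.72 in Srsf2P95H, and 0.30 and 0.60 in Asxl1Tg. Hyou1 in DM, at 401 to 481 CPM, lay above its 204 to 392 CPM in WT. Without Asxl1Tg 2, edgeR called Hyou1 in Asxl1Tg versus WT.

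The lectin chaperones Calr and Canx, which hold glycoproteins until they are folded, each passed a test. Calr (chr8:84841850-84846934, minus strand) was at 1944, 2068, 1658 and 1890 CPM in DM, 2191, 1794, 1707 and 2100 in Srsf2P95H and 2208, 1116, 1606 and 1852 in Asxl1Tg, against 1503, 1401, 1063 and 850 in WT. All DM and Srsf2P95H libraries were above all WT libraries, whereas Asxl1Tg 2 fell within the WT range. Calr rose 1.57-fold in DM versus WT (log2 fold change 0.65, SE 0.19, adjusted p = 0.0441, edgeR) and just missed a call in the averaged Srsf2 effect (0.43, SE 0.13, adjusted p = 0.0528). Canx (chr11:50293961-50325673, minus strand) was at 1079, 1033, 885 and 978 CPM in DM, 1216, 915, 983 and 1052 in Srsf2P95H and 998, 666, 879 and 899 in Asxl1Tg, against 886, 828, 709 and 590 in WT. Srsf2P95H lay above WT throughout, and DM 3 was level with WT 1. Canx rose in the averaged Srsf2 effect (0.34, SE 0.09, adjusted p = 0.0338, edgeR). The Calr call was lost without any of 10 libraries (DM 1, DM 2, DM 4, Srsf2P95H 3, Srsf2P95H 4, Asxl1Tg 3, Asxl1Tg 4, WT 2, WT 3 or WT 4; adjusted p up to 0.113), and the Canx call without any of 8 (DM 1, DM 2, DM 4, Srsf2P95H 1, Srsf2P95H 3, Asxl1Tg 2, WT 3 or WT 4; up to 0.0877).

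Of the genes for disulfide formation, Pdia3 and Ero1l rose with the Srsf2 mutation. Pdia3, the disulfide isomerase that works with Calr and Canx (chr2:121413775-121438687, plus strand), was at 663, 645, 576 and 614 CPM in DM, 819, 568, 600 and 732 in Srsf2P95H and 663, 398, 522 and 616 in Asxl1Tg, against 541, 484, 421 and 337 in WT. Ero1l, the oxidase that recharges the isomerases (chr14:45283087-45318771, minus strand), was at 64.5, 57.2, 55.04 and 62.2 CPM in DM, 73.4, 55.5, 62.4 and 70.5 in Srsf2P95H and 63.0, 41.5, 52.1 and 56.7 in Asxl1Tg, against 52.5, 48.1, 37.4 and 43.6 in WT. Both genes were higher in every DM and Srsf2P95H library than in any WT library. For both, Asxl1Tg 2 and Asxl1Tg 3 fell within the WT range, while Asxl1Tg 1 and Asxl1Tg 4 lay above it. In DM versus Asxl1Tg neither gene reached an unadjusted p under 0.05 (edgeR). In the averaged Srsf2 effect the log2 fold change of Pdia3 was 0.40 (SE 0.11, adjusted p = 0.0367) and that of Ero1l 0.35 (SE 0.09, adjusted p = 0.0241, edgeR for both). The Ero1l call was lost without DM 1, DM 4 or Srsf2P95H 1 (adjusted p up to 0.0650), and the Pdia3 call without DM 1, DM 2, DM 4, Srsf2P95H 1, Srsf2P95H 4, Asxl1Tg 2, Asxl1Tg 3, WT 3 or WT 4 (up to 0.0923). The isomerases Pdia4 and Pdia6 and the isomerase-like Creld2 were not called by edgeR on all libraries. DESeq2 called Pdia4 and Pdia6 in Srsf2P95H versus WT and Pdia6 in DM versus WT, and edgeR without Asxl1Tg 2 called both in each mutant genotype versus WT. Pdia4 was also called in DM versus WT on the compared groups only, and Pdia6 in Srsf2P95H versus WT without WT 1. In the averaged effect the log2 fold changes of Pdia4, Pdia6 and Creld2 were 0.34, 0.37 and 0.25.

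Among the BiP cofactors, Dnajc3 (p58IPK), a J-domain protein of the ER, rose. The gene (chr14:118937976-118981697, plus strand) was at 190, 199, 168 and 153 CPM in DM, 211, 186, 157 and 180 in Srsf2P95H and 176, 129, 157 and 164 in Asxl1Tg, against 158, 135, 133 and 125 in WT. DM 4 and Srsf2P95H 3 were below WT 1, and the other 6 libraries with the Srsf2 mutation were above all of WT. Its log2 fold change was 0.37 in DM versus WT (SE 0.11, adjusted p = 0.0474) and 0.30 in the averaged Srsf2 effect (SE 0.08, adjusted p = 0.0267, edgeR for both). The first call was lost without any of 10 libraries (DM 1, DM 2, DM 4, Srsf2P95H 4, Asxl1Tg 1, Asxl1Tg 3, Asxl1Tg 4, WT 2, WT 3 or WT 4; adjusted p up to 0.134), and the second without DM 1, DM 2, Srsf2P95H 1, Asxl1Tg 2 or WT 3 (up to 0.0756). The J-domain cofactors Dnajb9 and Dnajb11, the cofactor Sdf2l1 and the secreted ER protein Manf were not called by edgeR on all libraries. DESeq2 called Dnajb11 and Manf in Srsf2P95H versus WT, and edgeR without Asxl1Tg 2 called Dnajb11 and Sdf2l1 in Asxl1Tg versus WT. Sdf2l1 had log2 fold changes of 0.62 in DM, 0.84 in Srsf2P95H and 0.84 in Asxl1Tg with a standard error of 0.33, and spanned 31.2 to 122 CPM over the 16 libraries.

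**Figure D3:**
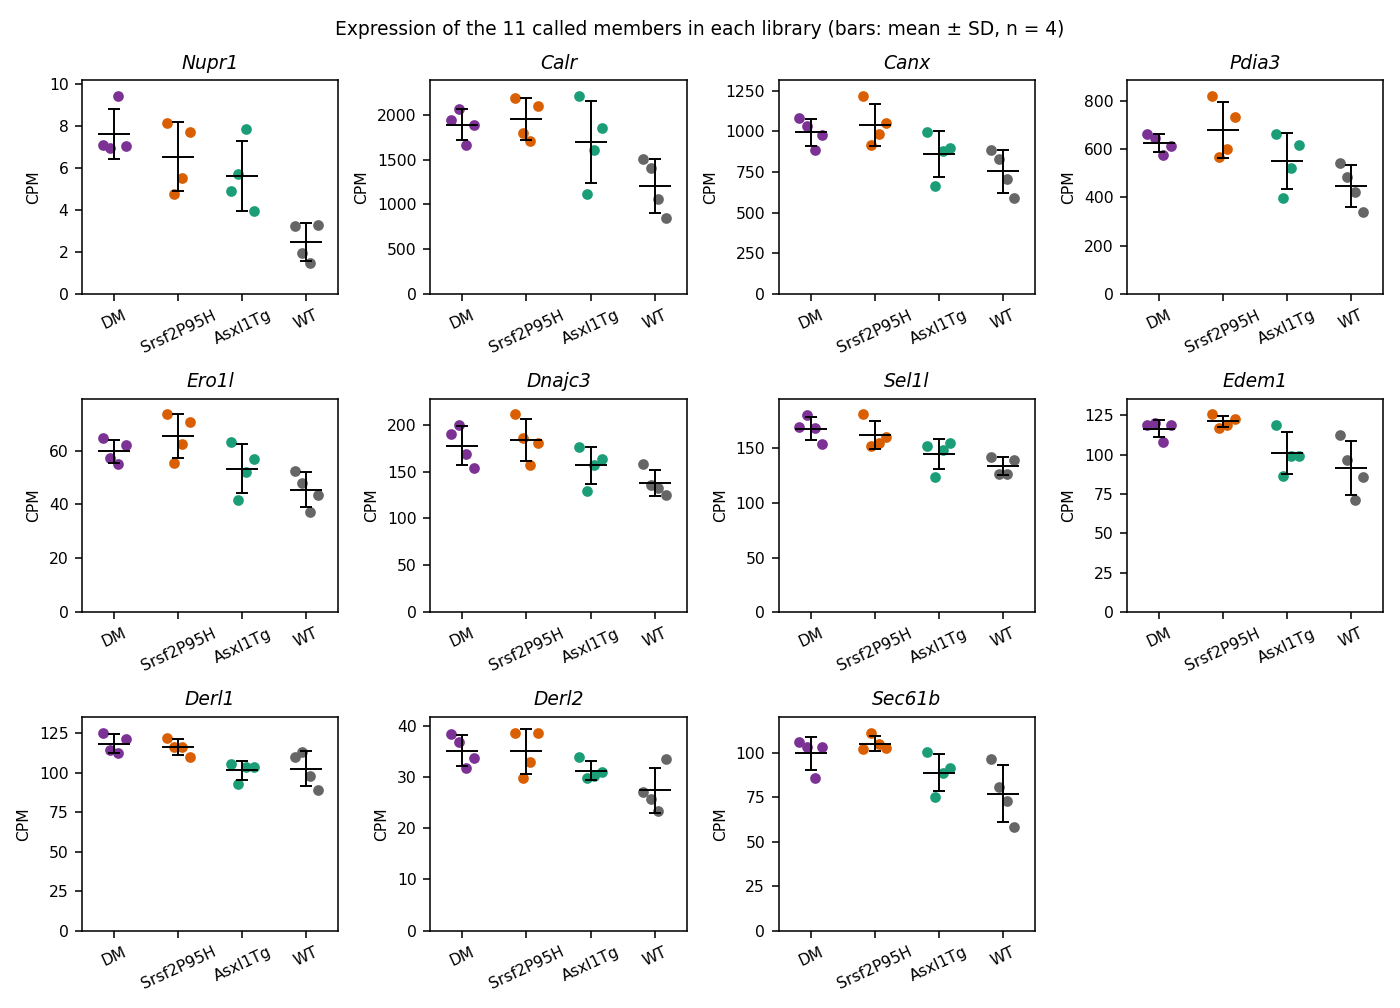
CPM of each of the 11 called members in every library, with DM, Srsf2P95H, Asxl1Tg and WT from left to right (points, 4 mice per genotype; bars, mean ± SD). Nupr1 shows no overlap between WT and any mutant genotype. For Calr, Pdia3, Ero1l and Sel1l all DM and Srsf2P95H points lie above WT while Asxl1Tg spans both. For Canx, Dnajc3, Edem1, Derl1, Derl2 and Sec61b some DM or Srsf2P95H points overlap with WT.

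Of the 7 ERAD members, 4 rose in the averaged Srsf2 effect, and 2 of those also in DM versus WT. Sel1l, the adaptor of the ERAD ubiquitin ligase (chr12:91806043-91849157, minus strand), was at 169, 180, 169 and 154 CPM in DM, 181, 152, 155 and 161 in Srsf2P95H and 152, 124, 148 and 155 in Asxl1Tg, against 142, 126, 126 and 139 in WT. All DM and Srsf2P95H libraries were above WT. The log2 fold change of Sel1l was 0.33 in DM versus WT (SE 0.08, adjusted p = 0.0223) and 0.25 in the averaged Srsf2 effect (SE 0.06, adjusted p = 0.0159, edgeR for both). The first call was lost without DM 1, DM 2, WT 2 or WT 3 (adjusted p up to 0.0768), and the second without DM 2 or Srsf2P95H 1 (up to 0.0526).

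Edem1, a lectin that hands misfolded glycoproteins to ERAD (chr6:108828641-108859356, plus strand), was at 119, 120, 108 and 119 CPM in DM, 126, 117, 119 and 123 in Srsf2P95H and 119, 86.7, 98.9 and 99.3 in Asxl1Tg, against 112, 96.7, 71.1 and 85.9 in WT. The 4 Srsf2P95H libraries were above all of WT, and DM 3 was below WT 1. Its log2 fold change in the averaged Srsf2 effect was 0.31 (SE 0.08, adjusted p = 0.0256, edgeR), a call lost without DM 1, DM 2, DM 4, Srsf2P95H 1 or Asxl1Tg 2 (adjusted p up to 0.0637).

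The derlins Derl1 and Derl2 are ER membrane proteins through which ERAD substrates leave the ER. Derl1 (chr15:57869502-57892448, minus strand) was at 125, 115, 113 and 121 CPM in DM, 122, 116, 116 and 110 in Srsf2P95H and 106, 93.0, 104 and 104 in Asxl1Tg, against 110, 113, 98.2 and 88.9 in WT. It was the member whose 4 DM libraries lay above all 4 Asxl1Tg libraries (7.35% of all genes did so), and its Asxl1Tg level was close to that of WT (log2 fold change -0.01, SE 0.07). In the averaged Srsf2 effect Derl1 rose by 0.20 on the log2 scale (SE 0.05, adjusted p = 0.0263, edgeR), a call lost without DM 1, DM 2, DM 4, Srsf2P95H 1, Asxl1Tg 2 or WT 3 (up to 0.0801).

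Derl2 (chr11:71007164-71019841, minus strand) was at 38.4, 36.7, 31.7 and 33.8 CPM in DM, 38.6, 29.8, 32.8 and 38.6 in Srsf2P95H and 34.0, 29.8, 30.3 and 31.0 in Asxl1Tg, against 27.1, 25.7, 23.3 and 33.4 in WT. All 12 mutant libraries were above WT 1, WT 2 and WT 3, while WT 4 lay among them. The log2 fold change of Derl2 was 0.36 in DM versus WT (SE 0.11, adjusted p = 0.0493) and 0.26 in the averaged Srsf2 effect (SE 0.08, adjusted p = 0.0420, edgeR for both). Its first call was lost in 12 of 16 runs with a library left out, holding without DM 3, Srsf2P95H 2, Asxl1Tg 2 or WT 4 (adjusted p up to 0.147). The second was lost in 13, holding without DM 3, Srsf2P95H 2 or WT 4 (up to 0.114). Exons of Derl2 overlap those of Mis12 on the opposite strand over 231 bases, and those of Pdia3 overlap Catsper2 over 18 bases. Whether counting used strand is not given in the sources used here, so reads of each pair cannot be told apart in the shared bases.

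The other ERAD members, the stress-induced membrane protein Herpud1, the ubiquitin ligase Syvn1 and the derlin Derl3, were not called by edgeR on all libraries, DESeq2 or limma-voom. Herpud1 came nearest in the averaged Srsf2 effect (log2 fold change 0.22, SE 0.08, adjusted p = 0.0904, edgeR), and was called there without Srsf2P95H 3. Derl3 was at 1.46 to 4.75 CPM over all libraries. Sec61b, a subunit of the channel through which new proteins enter the ER (chr4:47474658-47483242, plus strand), was at 106, 103, 86.0 and 103 CPM in DM, 102, 111, 105 and 103 in Srsf2P95H and 100, 74.9, 88.5 and 91.7 in Asxl1Tg, against 96.5, 80.6, 72.8 and 58.4 in WT. Every Srsf2P95H library was above every WT library, and DM 3 was below WT 1. Sec61b rose in the averaged Srsf2 effect (0.31, SE 0.09, adjusted p = 0.0330, edgeR), a call lost without DM 1, DM 2, DM 4, Srsf2P95H 1, Srsf2P95H 3, Asxl1Tg 2 or WT 3 (up to 0.0803).

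Adding one mutation to the other moved no member past the test. In DM versus Asxl1Tg 0 of 33 were called with edgeR, DESeq2 or limma-voom, where 0.848% of genes rose and 0.229% fell with edgeR. At an unadjusted p under 0.05, 3 were higher (Eif2ak3, Sel1l and Derl1; 10.6% of all genes), and the median was 0.11. In DM versus Srsf2P95H 0 were called by the same 3 tools, where 0.215% of genes rose and 0.0308% fell. At an unadjusted p under 0.05, Atf4 alone was lower (2.55% of all genes), and the median was -0.12. The Asxl1 transgene, averaged over both Srsf2 backgrounds, called 0 members with edgeR, where 1.4% of genes rose and 0.444% fell. Nupr1 was the 1 member higher at an unadjusted p under 0.05 (6.83% of all genes). It stood 1.63-fold higher, or 0.70 on the log2 scale (SE 0.19, adjusted p = 0.0677, edgeR). DESeq2 and limma-voom each called 1 member.

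The effects of both mutations were also tested for additivity, as DM minus Asxl1Tg minus Srsf2P95H plus WT. With edgeR 0 of the 22749 genes were called (0% higher and 0% lower), and 0 members were called by DESeq2 or limma-voom. The interaction was above 0 for 4 members (Eif2ak3, Trib3, Dnajb9 and Derl1), against 53.5% of all genes, and its median was -0.37 over the members and 0.03 over all genes. At an unadjusted p under 0.05 it was below 0 for 6 members (Xbp1, Atf4, Nupr1, Hyou1, Dnajb11 and Sdf2l1; 5.81% of all genes). With any library left out, the median stayed between -0.47 and -0.28.

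Other genes of the pathway, from lists that held no member, were counted in the same fit, where 4.65% of all genes rose in DM versus WT and 6.57% in the averaged Srsf2 effect. Of 22 genes for the translocon and signal peptidase, 6 rose in DM versus WT and 11 in the averaged Srsf2 effect, and none fell. Among them in the averaged effect were Ssr3 (log2 fold change 0.46), a subunit of the translocon-associated complex, and the channel partners Sec63 (0.21) and Sec62 (0.20). Of 20 genes for N-glycosylation and glycoprotein quality control, 10 rose in each of these comparisons and none fell, with Alg2 (0.34) and Stt3a (0.36), which build and transfer the glycan, and the cargo cofactor Mcfd2 (0.27) in the averaged effect. Of 14 further genes of oxidative folding, 5 rose and 1 fell in DM versus WT. In the averaged effect 7 rose and 1 fell, with Tmx1 (0.37), Selenof (0.35) and Prdx4 (0.36) among those that rose. The gene that fell, Pdia2, had the largest change of the list (-0.90) at a low level. Its mean was 0.804 CPM in DM, 0.865 in Srsf2P95H, 1.65 in Asxl1Tg and 1.48 in WT.

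The remaining lists were counted in the averaged Srsf2 effect too, and some of their shares were near the 6.57% of all genes. Of 24 further ERAD genes 4 rose, with Erlin1 (0.31) and Selenos (0.32) among them. Of a mixed list of 22 other genes linked to the response 2 rose, Ppib (0.22) and Tmbim6 (0.19). Of 21 tested genes of the integrated stress response 4 rose, and of 17 ATF4 targets of amino acid supply 2 rose, Slc7a11 (0.66) and Psat1 (0.32). Of the cytosolic tRNA synthetases 1 of 18 rose, of the mitochondrial chaperones 1 of 10 and of the cytosolic heat shock genes 0 of 16. At an unadjusted p under 0.05 with edgeR, 7 synthetases, 6 mitochondrial chaperones and 3 heat shock genes were higher in that effect (15.7% of all genes).

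Lists outside the ER also had medians above 0. In Srsf2P95H versus WT the median log2 fold change was 0.36 over the cytosolic tRNA synthetases, 0.36 over the mitochondrial chaperones and 0.52 over the cytosolic heat shock genes, beside 0.45 over the members. Of these genes 14 of 18, 8 of 10 and 10 of 16 were higher there at an unadjusted p under 0.05 (14.2% of all genes), while edgeR called none of them.

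The spread between libraries of one genotype was close in size to the differences between genotypes. Over the 15 members that are chaperones, isomerases or BiP cofactors, the median deviation from the WT mean (log2 CPM) was 0.52, 0.63, 0.40 and 0.39 in DM and 0.90, 0.44, 0.26 and 0.83 in Srsf2P95H. It was 0.78, -0.13, 0.25 and 0.61 in Asxl1Tg, against 0.30, 0.09, -0.04 and -0.44 in WT. WT 4 was the lowest of the 16 libraries for 16 of 33 members, 12 of them among these 15. Srsf2P95H 1 was the highest for 14, again with 12 of the 15. Asxl1Tg 2 lay below WT 1, WT 2 and WT 3, while Asxl1Tg 1 lay above all 4 DM libraries.

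**Figure D4:**
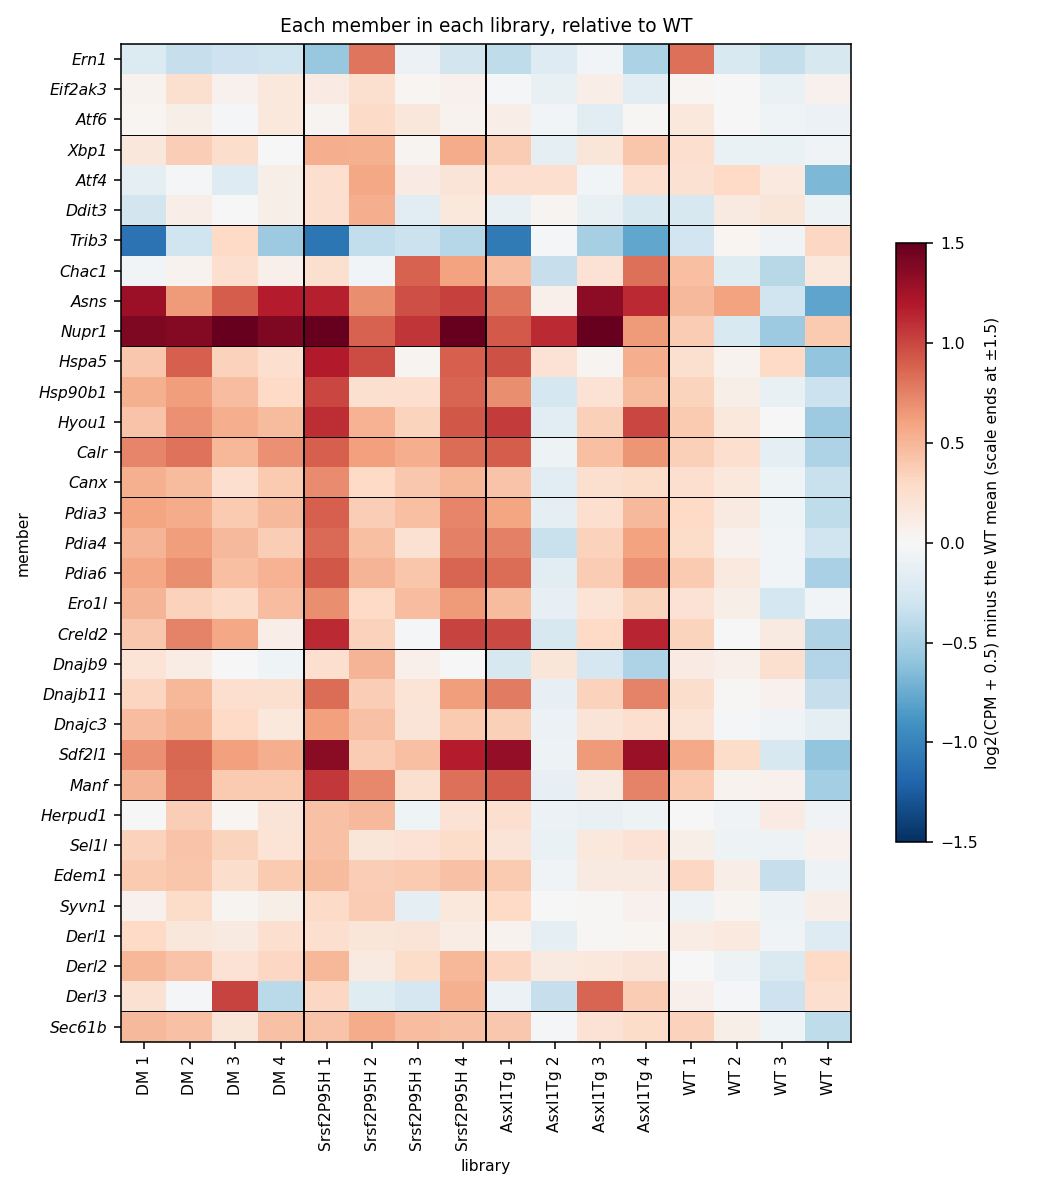
Log2(CPM + 0.5) of each of the 33 members (rows, by role) in each of the 16 libraries (columns, DM, Srsf2P95H, Asxl1Tg and WT), minus the WT mean, with red higher and blue lower. Most chaperone and folding rows change together within a column, with WT 4 and Asxl1Tg 2 low and Srsf2P95H 1, Srsf2P95H 4 and Asxl1Tg 1 high. Dnajb9 is an exception, at 45.7 CPM in Asxl1Tg 2 and 34.0 CPM in Asxl1Tg 1, against a WT mean of 40.8 CPM. Hspa5 in Asxl1Tg 2 (780 CPM) is above its WT mean (688 CPM).

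The spread between mice was smallest in DM. The median coefficient of variation of the members was 8.69% in DM, 16.9% in Srsf2P95H, 19.9% in Asxl1Tg and 19.2% in WT. Over the 9452 genes of at least 10 CPM it was 7.80% in DM, 9.08% in Srsf2P95H, 9.23% in Asxl1Tg and 9.28% in WT.

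Other gene lists differed between the same libraries. A list of 10 genes of granulocyte-monocyte progenitors held granule protein genes such as Mpo and Elane, and also Csf3r, Cebpe, Gfi1 and Ms4a3. All 10 had counts in every library. They summed to 5655, 6033, 3891 and 7145 CPM in DM, 4619, 5643, 6403 and 5597 in Srsf2P95H and 5609, 2316, 4856 and 4263 in Asxl1Tg, against 4594, 4002, 1315 and 1993 in WT. Mpo held most of the sum in every library (3872 CPM in DM 1 and 772 CPM in WT 3). WT 3, WT 4 and Asxl1Tg 2 were lowest for the sum, and the same 3 libraries were lowest for the folding members. Asxl1Tg 1 and WT 1 were the highest of their genotypes for both. In Srsf2P95H the order was reversed, from Srsf2P95H 3 (sum 6403 CPM, folding median 0.26) to Srsf2P95H 1 (4619 CPM, 0.90). DM 4 had the highest sum of the 16 libraries (7145 CPM) and the lowest folding median in DM (0.39). Not every gene followed the sum, as Gfi1 was lowest in WT 1 (30.0 CPM). In bulk samples, more cells of a type and more RNA per cell cannot be told apart, and the part of these 10 genes in the results above was not tested.

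Immediate-early genes, which respond to handling and stimulation, summed to 1600 to 2935 CPM in DM, 2438 to 12753 in Srsf2P95H and 2161 to 8715 in Asxl1Tg, against 748 to 12112 in WT. WT 4 was lowest and Srsf2P95H 2 highest. Plasma cells secrete much protein and are rich in ER, and their 14 markers (Xbp1 and Derl3 left out) summed to 440 to 1958 CPM in DM, 502 to 980 in Srsf2P95H and 267 to 3530 in Asxl1Tg, against 374 to 1739 in WT. WT 4, lowest for the folding members, was among the higher libraries for the sum of plasma cell markers, with Ighm at 1122 CPM making up most of it. Other markers in WT 4 were mixed. Igha was low there at 71.2 CPM (22.6 to 912 over all libraries), and Igkc was at 320 CPM (12.0 to 934). WT 4 was highest for eosinophil genes (1580 CPM, against 42.8 to 486 in the other 15). WT 4 was also highest for B-lineage genes (143 CPM, against 27.4 to 50.7 in the other 15), mature neutrophil genes (165 CPM) and mast cell and basophil genes (605 CPM). The part of any of these lists in the results was not tested. Without both WT 4 and Srsf2P95H 2, the averaged Srsf2 effect again called 10 members, all higher, and DM versus WT called 3 higher and 1 lower, the last being Atf4.

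**Figure D5:**
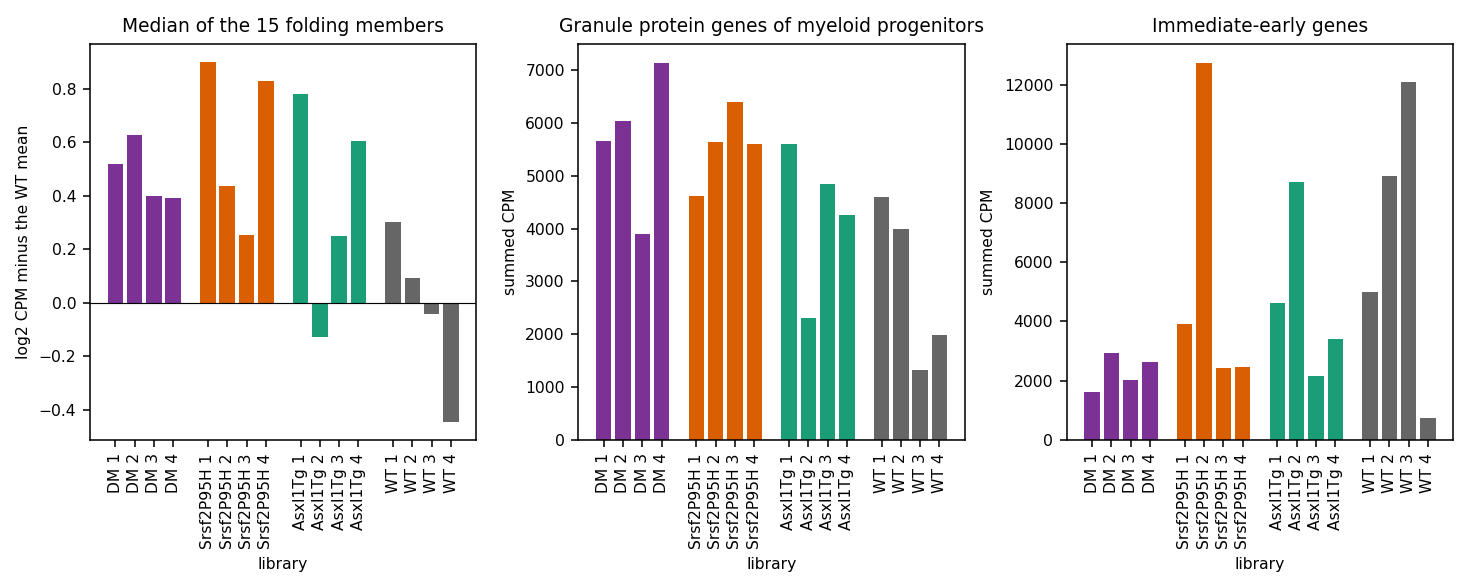
For each of the 16 libraries, the median log2 deviation of the 15 folding members from the WT mean (left), the summed CPM of the list of granulocyte-monocyte progenitor genes, most of it Mpo (middle), and of immediate-early genes (right), with DM, Srsf2P95H, Asxl1Tg and WT from left to right in each panel. WT 4 is lowest for the folding members (-0.44) and low for both lists, and Srsf2P95H 2 is highest for immediate-early genes (12753 CPM).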

How the data were processed

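Total RNA of LSK cells was sequenced from 16 mice (4 DM, 4 Srsf2P95H, 4 Asxl1Tg and 4 WT), from paired-end libraries with a read length of 100 bases, per the labels. The authors deposited 1 table of unnormalized read counts with a row for each gene symbol. Per the submitters' processing notes, tools named were HTSeq 0.11.2, STAR 2.7.0e, Trimmomatic 0.38 and FastQC, with mm10 as the genome. Neither the annotation release nor the strand setting is given in the sources used here. The columns of Asxl1Tg carry an abbreviated name and were matched by their shared letters and replicate numbers, since the other 3 names match the titles.

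Counts were fitted with edgeR 4.0.16 in R 4.3.3 (filterByExpr with a minimum count of 10, TMM scaling, robust quasi-likelihood fit on all 16 libraries). In each of 8 comparisons the Benjamini-Hochberg adjustment covered 22749 genes, and an adjusted p under 0.05 made a call. CPM are TMM-scaled, and standard errors (SE) are on the log2 scale. Errors cover the spread between mice, and total counts of 82.99 to 127.6 megacounts make counting error small except for Chac1, Derl3, Trib3 and Nupr1. Coordinates and exon lengths came from GENCODE M21 (GRCm38, the build called mm10).

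The members, their roles and the further lists were chosen with earlier results of these data known, so no test of the list as a whole was made. Every member called in any comparison is given by library, with up to 3 called genes of each further list, and also Pdia2, which fell. Promoter sites of members not called were added after their values were seen. Replicate numbers were checked for pairing. Correlations of same-numbered libraries ran from -0.46 to 0.42, and 4 of 16 correlated best with their own number, so they were not used as pairs. Alternatives were DESeq2 1.42.0, limma-voom (limma 3.58.1) with quality weights, other scalings and filters, a replicate block, an Xist covariate, the compared groups alone, and libraries left out.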

Additional observations from a re-analysis of the deposited data

Results flagged for a closer look

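Single libraries that stood apart from the other 3 of their genotype were looked for in 132 groups of 4 (33 members in 4 genotypes). Chance flags about 1 in 20 groups, and 9 values were found. In DM 3, Nupr1 was high at 9.43 CPM, against 6.94 to 7.09 in the other DM libraries. Edem1 was low there at 108 CPM, against 119 to 120, and so was Sec61b at 86.0 CPM, against 103 to 106. In Srsf2P95H 3, Xbp1 was low at 94.0 CPM, against 133 to 134. Trib3 was low in Srsf2P95H 1 at 2.04 CPM, against 3.51 to 3.80. Atf4 was low in Asxl1Tg 3 at 149 CPM, where the other Asxl1Tg libraries each stood at 183. Herpud1 was high in Asxl1Tg 1 at 92.1 CPM, against 71.5 to 73.3. WT 1 held the last pair of values, Ern1 at 304 CPM, against 134 to 146 in the rest of WT, and Xbp1 at 109 CPM, against 85.0 to 88.3.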

How the results depend on the processing

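The number of called members in DM versus WT (5) was 12 by DESeq2, 10 by limma-voom, 10 under the replicate block, 2 with library size only, and 3 with no filter or the stricter filter (1 CPM in 4 libraries). In Srsf2P95H versus WT (1) the count came to 19 by DESeq2, 10 by limma-voom and 9 under the replicate block, and was 2 without both WT 4 and Srsf2P95H 2, and 0 on the compared groups only. In Asxl1Tg versus WT (1) it was 2 by DESeq2 and 0 with library size only or on the compared groups only. The averaged Srsf2 effect (10) gave 1 with library size only, and the averaged Asxl1 effect (0) gave 1 with DESeq2 or limma-voom. With a library left out the ranges were 1 to 13 in DM versus WT, 0 to 12 in Srsf2P95H versus WT, 0 to 8 in Asxl1Tg versus WT, 1 to 11 for the averaged Srsf2 effect and 0 to 1 for the averaged Asxl1 effect. The cause of these shifts was not tested. The median of the members kept its sign in each of the 8 comparisons and every run. Of 17 calls of single members 2 held in every run, both of Nupr1, and none reversed. With library size only, the calls of Sel1l, Dnajc3 and Derl2 in DM versus WT, of Nupr1 in Asxl1Tg versus WT and of all averaged Srsf2 effects except that of Nupr1 were lost (adjusted p from 0.0533 to 0.224). In DM versus WT, Calr was also lost with no filter (0.0703) and without both WT 4 and Srsf2P95H 2 (0.118), as was Dnajc3 with RLE factors (0.0525), the stricter filter (0.062) and without both of those libraries (0.117). Derl2 was lost there with no filter, the stricter filter and on the compared groups only (adjusted p up to 0.079). The averaged calls of Pdia3 and Derl2 were lost with no filter, and that of Derl2 with the stricter filter too (adjusted p up to 0.0818). On the compared groups only, Nupr1 was lost in Srsf2P95H versus WT (0.114) and in Asxl1Tg versus WT (0.133). Over all genes, DM versus WT called 2135, with 4311 by limma-voom and 586 without DM 1. Srsf2P95H versus WT called 115, with 2602 by DESeq2 and 0 without Srsf2P95H 4. Asxl1Tg versus WT called 428, with 2330 without Asxl1Tg 2 and 73 on the compared groups only. DM versus Asxl1Tg called 245 (10 without Asxl1Tg 1, 1168 with DESeq2), DM versus Srsf2P95H 56 (20 without Srsf2P95H 4, 234 with DESeq2), the averaged Srsf2 effect 2420 (914 without DM 1, 3813 with DESeq2) and the interaction 0 (52 with DESeq2). The averaged Asxl1 effect called 420 (1087 with DESeq2).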
